A study of Mus musculus with 2 samples.

Results

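The proteasome genes of mouse lung endothelial cells (ECs) were followed 6 h after B16-F10 melanoma cells reached the lungs. Genes were taken by symbol, as Psma, Psmb, Psmc, Psmd, Psme, Psmf or Psmg followed by a number. Of 32285 listed genes, 50 had such a symbol, and 49 of these had at least 50 unique molecular identifiers (UMIs, 1 for each captured transcript) over the cells that passed the quality limits. The gene left out was Psmb11, a catalytic subunit known from the thymus, with 7 UMIs. By role, the 49 genes were divided into 35 constitutive subunits and regulators, 5 immune subunits (Psmb8, Psmb9, Psmb10, Psme1 and Psme2), 7 assembly chaperones and 2 genes that are neither, Psmc3ip and Psme2b. The members were chosen by name and total UMIs, not by a difference between the libraries, and the lowest total kept was 130 UMIs, of Psma8.

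The study compared lung ECs of healthy mice with those of mice in which metastatic colonization had begun. Each group was 1 single-cell RNA-Seq library (10x Genomics, counting the 3' ends of transcripts). The control library came from lungs taken 6 h after PBS was given by tail vein, and the B16-F10 6 h library from lungs taken 6 h after 400000 B16-F10 cells in 100 µl of PBS were given by the same route. Mice were wild-type C57BL/6 (male and 8 to 10 weeks old by the methods), B16-F10 is a melanoma cell line of the same strain, and the injected cells carried a green dye. Cells positive for Pecam1, an EC surface protein, but not for Ptprc, which leukocytes carry, were sorted, together with the dyed melanoma cells of the injected lungs. The labels give 2 mice per treatment and the methods 3 mice pooled per sample, and no label separates the cells by animal. With 1 library per group no test between the groups was possible, and the intervals below are 95% intervals that cover counting error only, not the spread between mice.

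The proteasome is the protease that degrades ubiquitin-tagged proteins. Its core is a stack of rings in which alpha subunits gate the entry and beta subunits cut the protein chain, and a regulatory particle of ATPases and other subunits recognises, unfolds and feeds in the substrate. Interferons induce an alternative set in which Psmb8, Psmb9 and Psmb10 take the places of the catalytic subunits Psmb5, Psmb6 and Psmb7, and in which Psme1 and Psme2 form a different cap. Such immunoproteasomes favour peptides that fit MHC class I, and ECs, which face circulating lymphocytes, are among the non-immune cells that can carry them.

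The libraries held 85794655 and 104978816 UMIs in all. After limits on genes and mitochondrial UMIs and the removal of called doublets, 7830 control cells and 7767 B16-F10 6 h cells were kept, with medians of 7510 and 8557 UMIs per cell. Their barcode sequences coincided in 18 cases. Cells were clustered without the proteasome genes and named from marker lists: general capillary cells (gCap-like, 3957 and 3591 cells), aerocyte capillary cells (aCap-like, 1449 and 978), artery-like (182 and 139), vein-like (306 and 298) and lymphatic cells (LEC-like, 58 and 51). In each of these 5 classes all 8 markers of its own list and all 8 EC markers were detected in both libraries, a weak check of the names. By the naming rule given in the methods below, the gCap-like clusters met from 4 to 8 of their 8 markers. The aCap-like and vein-like clusters met 8, and the artery-like and LEC-like clusters 7. Cells of clusters with EC markers but no clear class (1136 and 1246) and mixed clusters (717 and 1267) were left out of the classes. Levels are given as CPM, the UMIs of a gene for every 1000000 UMIs of its class. A gene was counted as measured in a class with at least 50 UMIs over both libraries, and as higher or lower when its log2 ratio, B16-F10 6 h over control, lay at least 0.32 above or below 0.

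All 5 immune members were higher in the gCap-like cells of the B16-F10 6 h library. Their summed level was 861 CPM in the control and 1265 CPM 6 h after B16-F10, and their median log2 ratio was 0.58 (0.53 to 0.64), beside -0.04 over all 12900 measured genes. The 34 measured constitutive members had a median log2 ratio of 0.26 (0.21 to 0.31), with 32 of them above 0, and the 7 assembly chaperones one of 0.18 (0.03 to 0.33). For comparison, 55% of all measured genes had a ratio below that of Psmd9, -0.001. The share of all genes with an interval that excluded 0 was not counted. Of the 48 measured members, 13 were higher by that limit and 0 lower, where 15.7% of all genes were that much higher and 21.3% that much lower. The 13 were the 5 immune members, 7 constitutive members and 1 chaperone, so the constitutive members mostly differed by less than the limit while lying above 0. The count was 7 without the gCap-like cluster led by Adgrl3, which had a median of 1955 genes per cell, and the medians were then 0.50 for the immune and 0.20 for the constitutive members. It was 16 in cells without any UMI of the leukocyte, platelet, mural or melanoma lists, and 21 when the libraries were instead scaled so that the median gene had a ratio of 0.

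Psmb8, the immune counterpart of the chymotrypsin-like subunit, was measured at 209.7 CPM (6180 UMIs) in control gCap-like cells and at 339 CPM (10670 UMIs) in those of the B16-F10 6 h library, a log2 ratio of 0.69 (0.65 to 0.74). Psmb9, the counterpart of the caspase-like subunit, was at 138 and 188 CPM, a log2 ratio of 0.44 (0.39 to 0.50). Psmb10, the counterpart of the trypsin-like subunit, was at 147 and 219 CPM, a log2 ratio of 0.58 (0.53 to 0.64). The ratio of Psmb8 lay above those of Psmb9 and Psmb10 with intervals that did not overlap. The cap subunit Psme1 was at 233 and 316 CPM, a log2 ratio of 0.44 (0.40 to 0.49). Its partner Psme2 was at 134 and 202 CPM, a log2 ratio of 0.59 (0.53 to 0.65). Among all measured genes the ratios of the 5 immune members stood between the 89.1 and 94.4 percentiles. All 5 had higher CPM in the B16-F10 6 h library with no overlap of the intervals of the 2 levels.

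Of the constitutive catalytic subunits, Psmb6 and Psmb7 passed the limit and Psmb5 fell just short of it. Psmb5, the chymotrypsin-like subunit, was at 123 CPM in the control and 153 CPM in the B16-F10 6 h library, a log2 ratio of 0.31 (0.25 to 0.38). Psmb6, the caspase-like subunit, was at 116 and 151 CPM, a log2 ratio of 0.39 (0.32 to 0.45). Psmb7, the trypsin-like subunit, was at 78.9 and 101 CPM, a log2 ratio of 0.36 (0.28 to 0.44). In the pair of Psmb9 and Psmb6 the intervals of the ratios overlapped, and in the other 2 pairs they did not.

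The share of the immune gene in the UMIs of each catalytic pair sets both readings side by side. It compares transcripts between libraries and classes and does not measure the subunits in the particle. In gCap-like cells Psmb8 made up 63.0% (62.0 to 63.9) of the UMIs of Psmb8 and Psmb5 in the control and 68.8% (68.1 to 69.6) in the B16-F10 6 h library, a difference of 5.90 percentage points (4.70 to 7.10). Psmb10 made up 65.0% and then 68.4% of its pair with Psmb7, a difference of 3.38 percentage points (1.92 to 4.84). Psmb9 made up 54.5% and 55.5% of its pair with Psmb6, and the interval of the difference of 0.99 percentage points (-0.48 to 2.46) took in 0. The shares of Psmb8 and Psmb10 thus differed beyond counting error between the libraries, while a difference in the share of Psmb9 was not detectable at this depth.

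**Figure D1:**
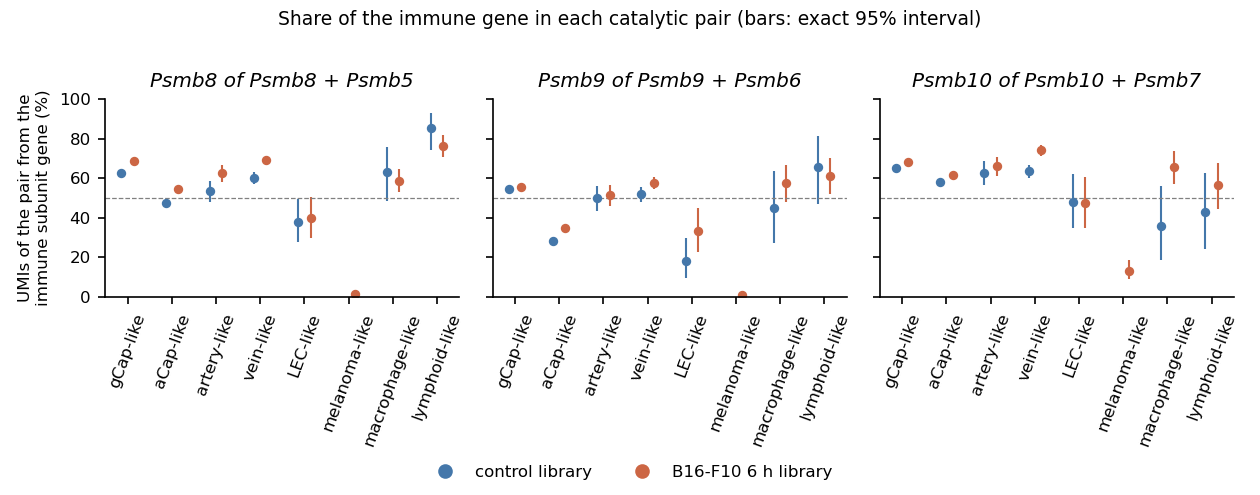
Share of the immune gene in the UMIs of each catalytic pair (y axis, %), by cell class (x axis) in the control library (blue) and the B16-F10 6 h library (orange), with exact 95% intervals of the counts. gCap-like cells sit at 63.0% and 68.8% for Psmb8, aCap-like cells lower at 47.6% and 54.6%, and melanoma-like cells near 0 at 1.59%.

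The immune genes lie in a pair of tight neighbourhoods of the mouse genome (GRCm38). Psmb8 (chr17:34197721-34201454, plus strand) and Psmb9 (chr17:34181987-34187764, minus strand) lie with the peptide transporter genes Tap1 and Tap2 within 34335 bases. Psme1 (chr14:55578123-55581529, plus strand) and Psme2 (chr14:55587441-55591113, minus strand) lie within 12991 bases, and Psmb10 stands apart (chr8:105935735-105938444, minus strand). The constitutive partners are at chr14:54614119-54618022 for Psmb5, chr11:70525367-70527858 for Psmb6 and chr2:38588036-38644087 for Psmb7. All 49 members matched a protein-coding gene of the annotation, spread over 16 chromosomes.

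The promoters of the immune genes and of the partners Psmb5 and Psmb6 are shown because these genes moved by different amounts in the same cells. Each line holds 150 bases of the coding strand from RefSeq (GRCm38.p6), 120 before and 30 after the listed start, and capitals mark a match to 1 of the motifs searched.
Psmb8, chr17:34198075-34198224, plus strand: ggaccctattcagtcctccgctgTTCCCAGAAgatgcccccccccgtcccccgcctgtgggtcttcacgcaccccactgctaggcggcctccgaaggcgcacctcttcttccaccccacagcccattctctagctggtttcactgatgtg
Psmb9, chr17:34187301-34187450, minus strand: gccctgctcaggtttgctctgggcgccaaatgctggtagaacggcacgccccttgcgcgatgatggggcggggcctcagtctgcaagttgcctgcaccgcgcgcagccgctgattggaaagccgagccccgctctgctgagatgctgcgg
Psmb10, chr8:105938363-105938512, minus strand: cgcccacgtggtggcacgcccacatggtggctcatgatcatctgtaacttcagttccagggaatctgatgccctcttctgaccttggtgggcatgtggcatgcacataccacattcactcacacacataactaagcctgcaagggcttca
Psme1, chr14:55578374-55578523, plus strand: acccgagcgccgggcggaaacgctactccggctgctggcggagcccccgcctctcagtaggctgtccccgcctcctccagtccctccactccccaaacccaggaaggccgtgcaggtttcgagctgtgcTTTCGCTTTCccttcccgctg
Psme2, chr14:55591072-55591221, minus strand: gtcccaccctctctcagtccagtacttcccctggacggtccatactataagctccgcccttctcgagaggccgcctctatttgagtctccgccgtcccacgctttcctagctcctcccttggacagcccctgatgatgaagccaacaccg
Psmb5, chr14:54617966-54618115, minus strand: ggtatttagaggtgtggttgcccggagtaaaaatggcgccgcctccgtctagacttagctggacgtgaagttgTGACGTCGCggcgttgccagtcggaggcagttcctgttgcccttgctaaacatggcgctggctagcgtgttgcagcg
Psmb6, chr11:70525237-70525386, plus strand: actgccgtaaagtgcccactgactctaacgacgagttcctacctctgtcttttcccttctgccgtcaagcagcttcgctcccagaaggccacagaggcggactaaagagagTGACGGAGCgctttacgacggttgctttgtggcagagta
The motifs were searched on both strands over the 300 bases of each listed promoter, 250 before and 50 after the start, for the 41 members and 27025 genes with an entry. The interferon-stimulated response element, searched as GAAA and GAAA with 2 bases between them, was matched in 5 of 41 members and in 3.99% of all genes, and among the immune genes in Psme1. The interferon-gamma activated site, searched as TTC and GAA with 3 bases between them, was matched in 3 of 41 members and 9.55% of all genes, and among the immune genes in Psmb8. An antioxidant response element core, searched as TGAC and GC with 3 bases between them, was matched in 6 of 41 members and 13.99% of all genes, Psmb5 and Psmb6 among them, and an NF-kB site, searched as GGGAA and CC with 3 bases between them, in 4 of 41 members and 6.59% of all genes, with no immune gene. Each window shown held a match to at most 1 of the 4 motifs. These are matches of letters in a window and no measure of binding. The windows shown for Psmb8, Psmb9 and Psme1 lie wholly inside the gene spans given above, downstream of the outer start of each gene. Sequence before those outer starts was not searched for these genes. Psmb7 had no entry, and Psme2 has 2 listed starts, of which the first is shown.

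Of the 7 measured genes of the alpha ring, which gates the core, 1 passed the limit in gCap-like cells, Psma5. All 7 measured alpha genes had ratios above 0 with intervals that did not reach it, and their log2 ratios ran from 0.24 to 0.34. Among all measured genes these ratios stood between the 78.6 and 85.0 percentiles. Psma5 was at 113 CPM in the control and 143 CPM in the B16-F10 6 h library (log2 ratio 0.34, 0.28 to 0.41), and Psma6 at 116 and 142 CPM (0.29, 0.23 to 0.36). At the lower end, Psma3 was at 254.9 and 301 CPM (0.24, 0.20 to 0.28) and Psma1 at 121 and 143 CPM (0.24, 0.17 to 0.30). Psma2, Psma4 and Psma7 lay between them, so the ring genes moved within a narrow band. Psma8, an alpha subunit known from the testis, had only 16 and 4 UMIs and was not counted as measured.

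Of the structural beta subunits, which complete the inner rings without cutting, Psmb4 was at 139 and 181 CPM in gCap-like cells of the control and of the B16-F10 6 h library, a log2 ratio of 0.37 (0.31 to 0.43). Psmb2 was at 151 and 191 CPM (0.34, 0.28 to 0.39), and Psmb3 at 166 and 201 CPM (0.28, 0.22 to 0.33). Psmb1, at 208 and 229 CPM, had the smallest ratio of the 4 (0.14, 0.09 to 0.19), and its interval lay below those of the other three.

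The medians of the regulatory particle lay below those of the core. Its 6 ATPases, which unfold the substrate, had a median log2 ratio of 0.13 (0.07 to 0.20), and 1 of them passed the limit of 0.32. Psmc4 was at 73.5 and 93.0 CPM (log2 ratio 0.34, 0.26 to 0.42) and Psmc5 at 94.5 and 117 CPM (0.31, 0.24 to 0.38). Psmc6 was at 146 and 154 CPM (0.08, 0.02 to 0.14), and Psmc1 at 124 and 123 CPM, where the interval of the ratio of -0.01 (-0.07 to 0.06) took in 0. Psmc2 and Psmc3 lay between these pairs.

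The 11 other subunits of the regulatory particle had ratios above 0, with a median log2 ratio of 0.17 (0.11 to 0.24), beside -0.04 over all genes. Among all measured genes they stood between the 67.3 and 84.1 percentiles. The limit of 0.32 was passed by 0 of the 11, Psmd2 falling just short. Psmd2, a scaffold that docks ubiquitin carriers, was at 80.4 and 100.4 CPM (log2 ratio 0.32, 0.24 to 0.40), and Psmd3, a subunit of the lid, at 57.2 and 71.4 CPM (0.32, 0.23 to 0.41). Psmd14, which removes ubiquitin chains from the substrate, was at 69.2 and 74.6 CPM (0.11, 0.02 to 0.20), and Psmd11, a lid subunit that holds lid and base together, at 145 and 158 CPM (0.12, 0.07 to 0.18). Psmd1, Psmd4, Psmd6, Psmd7, Psmd8, Psmd12 and Psmd13 lay between them.

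The alternative caps went in opposite directions. Psme3, which forms a nuclear cap on its own, was at 18.1 and 24.6 CPM in gCap-like cells (log2 ratio 0.45, 0.29 to 0.61), the highest ratio of the constitutive set. Psme4, a large nuclear activator linked to the turnover of acetylated histones, was at 129.9 and 106 CPM. Its ratio of -0.30 (-0.36 to -0.23) alone among the 48 measured members had an interval wholly below 0. Of all measured genes, 23.3% had a ratio below that of Psme4. Psmf1, an inhibitor of the core, was at 19.6 and 22.3 CPM (0.19, 0.03 to 0.35).

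Among the assembly chaperones, Psmg4, which helps build the alpha ring, was at 42.6 and 55.4 CPM (log2 ratio 0.38, 0.27 to 0.48), and Psmg1 at 14.8 and 18.1 CPM (0.29, 0.11 to 0.48). The base chaperones Psmd5 and Psmd9 showed no detectable difference, Psmd5 at 37.4 and 38.5 CPM (0.05, -0.07 to 0.16) and Psmd9 at 43.6 and 43.5 CPM (-0.001, -0.11 to 0.11). Psmg2, Psmg3 and Psmd10 lay between them. Of the 2 genes named like proteasome genes that are neither subunit nor chaperone, Psmc3ip, which acts in meiotic recombination, was at 3.8 and 3.69 CPM (-0.04, -0.43 to 0.34). Psme2b, a near copy of Psme2, was at 11.6 and 13.3 CPM (0.20, -0.01 to 0.41), and since reads of the copies can be assigned to either, both values of the pair are uncertain. Exons of Psmb5, Psmd1, Psmg3 and Psme2b overlap another gene on the same strand, by 4.14% to 12.1% of their exon bases.

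**Figure D2:**
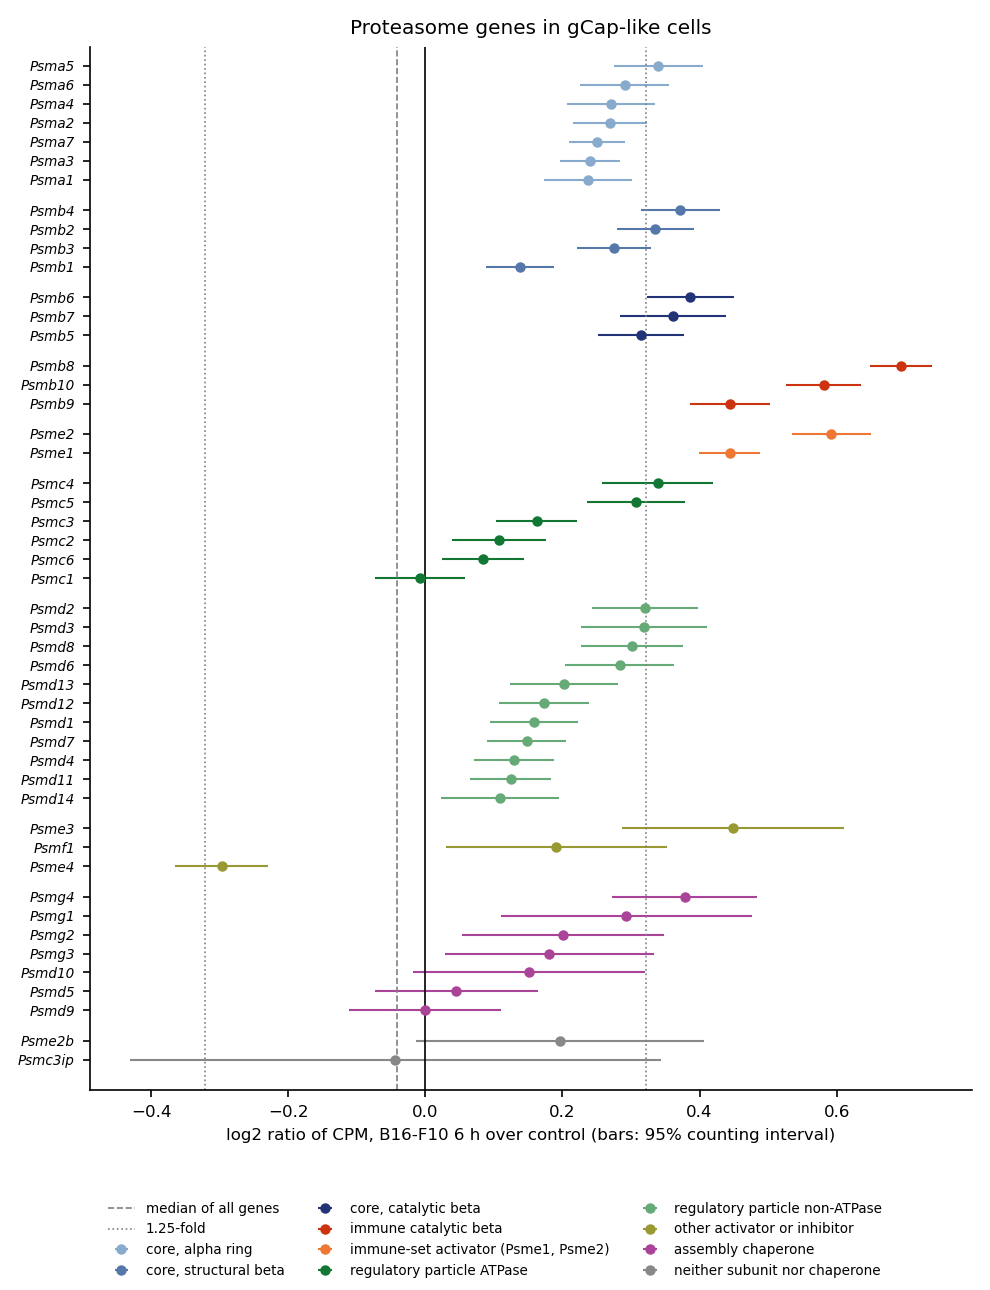
Log2 ratio of CPM in gCap-like cells, B16-F10 6 h over control (x axis), for each of the 48 measured members (y axis), grouped and coloured by role, with 95% counting intervals, the median of all genes (dashed) and the limits of 0.32 above and below 0 (dotted). The immune members lie from 0.44 to 0.69, Psme3 reaches 0.45, the other members lie at or below 0.39, and Psme4 lies alone on the left at -0.30.

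Several properties of the gCap-like cells differed between the libraries together with these values. Different clusters held most of the class: the cluster led by Sox11 held 32.9% of control gCap-like cells and 12.7% of B16-F10 6 h ones, and that led by Gm16141 14.2% and 2.39%. The cluster led by Lalba held 1.90% and 26.1%, and that led by Chrm2 12.7% and 30.5%. The cluster led by Adgrl3 held 19.0% and 10.0%. It had the lowest immune and constitutive sums of the gCap-like clusters in both libraries, the constitutive ones at 2284 and 2809 CPM. The median depth was 7301 and 8480 UMIs per cell, mitochondrial UMIs made up 2.15% and 2.48%, and the nuclear RNA Malat1 was at 37028 and 34276 CPM. The summed level of 8 melanoma markers was 1.36 CPM in control gCap-like cells, with 3 markers at 0, and 37.4 CPM in B16-F10 6 h ones, with all 8 higher. That of 8 macrophage markers was 19.4 and 34.4 CPM (7 of 8 higher), that of 8 neutrophil markers 2.85 and 9.03 CPM (7 of 8), that of 8 mural cell markers 26.6 and 41.9 CPM (7 of 8) and that of 8 erythroid markers 1304 and 1523 CPM (7 of 8). Platelet and lymphoid sums differed less, at 41.9 and 41.4 CPM and at 2.21 and 2.48 CPM. Without the cells that held any UMI of the leukocyte, platelet, mural or melanoma lists, 2570 control and 1344 B16-F10 6 h cells remained, and there the median log2 ratio was 0.56 for the immune and 0.27 for the constitutive members. In barcodes of 1 to 100 UMIs, which hold free RNA, the immune sum was 864.7 CPM in the control and 1355 CPM in the B16-F10 6 h library and the constitutive sum 4404 and 5533 CPM. After free RNA was subtracted at 5% of each sum, the gCap-like medians were 0.57 and 0.26.

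The immune median lay above the constitutive median inside most gCap-like clusters, each compared with itself between the libraries. The intervals below are those of middle members, not of the sets. They did not overlap between immune and constitutive medians in the clusters led by Sox11 and Chrm2. In those led by Ntrk2, Lalba, Adgrl3, Gm16141 and Ifit1 they overlapped. In the cluster led by Sox11 the immune sum was 1024 CPM in the control and 1536 CPM in the B16-F10 6 h library, with a median log2 ratio of 0.67 (0.55 to 0.78) for the immune and 0.28 (0.12 to 0.44) for the constitutive members. In that led by Chrm2 the sums were 719.9 and 1135 CPM, and the medians 0.67 (0.53 to 0.81) and 0.27 (0.10 to 0.44). In that led by Ntrk2 they were 906 and 1238 CPM, with medians of 0.48 (0.31 to 0.64) and 0.17 (0.01 to 0.32). The cluster led by Lalba, with only 75 control cells, gave medians of 0.75 (0.49 to 1.02) and 0.39 (0.13 to 0.66). The shallow cluster led by Adgrl3 had the lowest immune sums, 326 and 604 CPM, and medians of 0.86 (0.63 to 1.0952) and 0.38 (0.01 to 0.75). By the order of the medians, the cluster led by Gm16141 was the exception among the 7. Its immune median of 0.20 (-0.02 to 0.42) was no higher than its constitutive median of 0.22 (-0.08 to 0.51), both intervals took in 0, and it held 560 control and 86 B16-F10 6 h cells.

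Among the gCap-like clusters, that led by Ifit1, an interferon-induced gene, had the highest immune sum in both libraries. By single member, control Psmb10 was an exception, at 168 CPM there and 178 CPM in the cluster led by Sox11. The Ifit1-led cluster had an immune sum of 1169 CPM in 273 control cells and 1870.0 CPM in 288 B16-F10 6 h cells. In it Psmb8 made up 73.5% and 77.7% of the catalytic pair. Its constitutive sums, 3946 and 4683 CPM, lay within the range of the other gCap-like clusters. Its median log2 ratios were 0.60 (0.43 to 0.76) for the immune and 0.24 (0.01 to 0.47) for the constitutive members. Without this cluster the median log2 ratios in gCap-like cells were 0.55 for the immune and 0.25 for the constitutive members. A capillary cluster led by Esm1 (951 and 846 cells) held 6 of 8 gCap markers. It was left unnamed because the artery markers Hey1 and Efnb2 were among its top 10 genes. Its medians were 0.67 (0.54 to 0.80) for the immune and 0.36 (0.24 to 0.49) for the constitutive members. A further unnamed EC cluster, led by Csf2, held 13 control and 371 B16-F10 6 h cells and so was close to 1 library. In its B16-F10 6 h cells Psmb8, Psmb9 and Psmb10 made up 51.1%, 25.1% and 42.7% of their pairs, below the shares of the gCap-like cells of that library. Its constitutive sum was 5754 CPM.

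Cells were also ranged by 20 interferon-induced genes that hold no member. All gCap-like cells were first thinned to 2000 UMIs, which left out 60 control and 28 B16-F10 6 h cells with fewer. In the control, the 1141 cells with at least 5 interferon UMIs had an immune sum above that of the 998 cells with at most 1, by a log2 ratio of 0.59 (0.50 to 0.69), and a constitutive sum above by 0.10 (0.05 to 0.14). In the B16-F10 6 h library, 1021 cells with at least 6 such UMIs were set against 1229 cells with at most 2, and the ratios were 0.68 (0.61 to 0.76) for the immune and 0.07 (0.03 to 0.11) for the constitutive sum. Psmb8 differed by 0.83 (0.63 to 1.04) in the control and 0.76 (0.61 to 0.91) in the B16-F10 6 h library, and its share of the catalytic pair was 58.5% and 67.8% in low and high control cells and 63.1% and 75.1% in low and high B16-F10 6 h cells. Psmb9 differed by 0.38 (0.14 to 0.62) in the control and by 0.85 (0.65 to 1.05) in the B16-F10 6 h library, with intervals that did not overlap. Psmb5 and Psmb6 had intervals that took in 0 in both libraries. The score classes are ranges of a count and not cell types, and within a library their members share the same cells, so these ratios describe the libraries and carry no test.

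A list of 10 genes of the reactive capillary state, Pim3, Bcl3 and Socs3 among them, ranged the same cells in another way. Many of the 10 are markers that the study took from these libraries, so their direction is not independent evidence. Control gCap-like cells with at least 2 UMIs of the list were set against those with 0, and B16-F10 6 h cells with at least 8 against those with at most 2. High over low, the constitutive sum differed by -0.05 (-0.08 to -0.01) in the control and by 0.14 (0.10 to 0.18) in the B16-F10 6 h library. The immune sums differed by -0.11 (-0.20 to -0.02) in the control and 0.002 (-0.08 to 0.08) in the B16-F10 6 h library. Of 47 members with at least 50 UMIs in the B16-F10 6 h library, 10 were higher in high-score cells with an interval that excluded 0 and 1 lower, where 16.2% of all 8382 genes were higher and 18.4% lower. The 10 were Psme3, with 0.76 (0.18 to 1.35), Psmd6, with 0.63 (0.34 to 0.91), Psmd3, with 0.45 (0.13 to 0.77), Psmc6, with 0.37 (0.15 to 0.59), and Psma7, Psmb6, Psmc2, Psmd11, Psmd12 and Psmd14, between 0.28 and 0.33. In the control 0 of 47 were higher and 4 lower (Psma7, Psmb5, Psmb9 and Psmc5), where 5.17% of all 8860 genes were higher and 4.16% lower. Psmb9, the 1 lower member of the B16-F10 6 h library, differed by -0.23 (-0.44 to -0.02) in the control and -0.32 (-0.52 to -0.11) in the B16-F10 6 h library. These members were named after their values were seen.

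**Figure D3:**
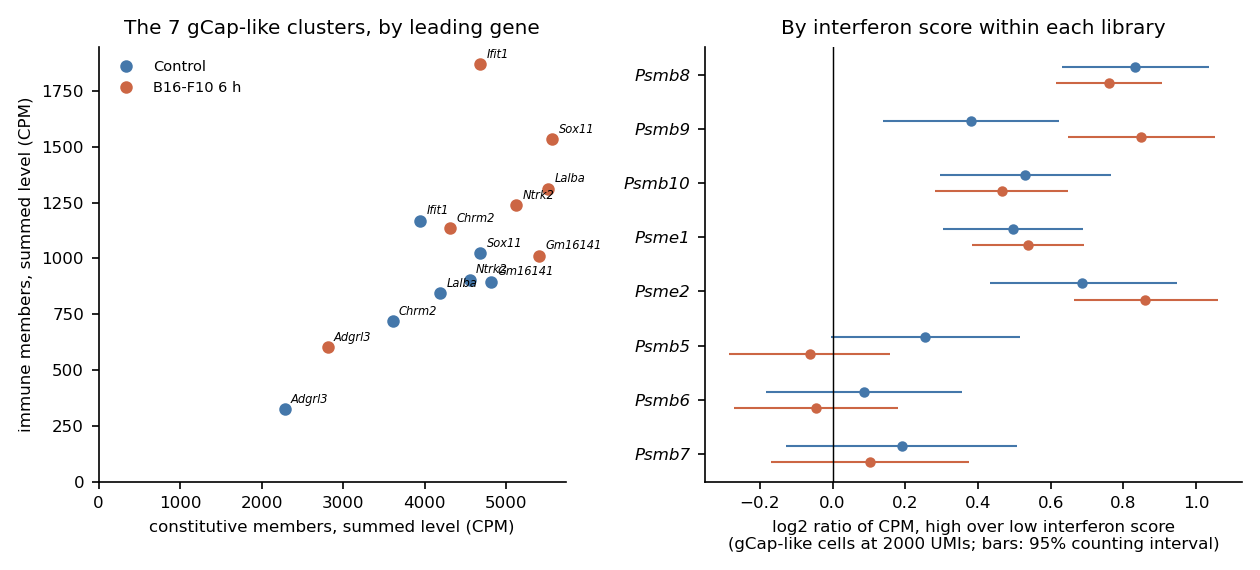
Left: summed CPM of the immune members (y axis) against that of the constitutive members (x axis) in the 7 gCap-like clusters, named by their leading gene, in the control (blue) and the B16-F10 6 h library (orange). Right: log2 ratio of CPM between gCap-like cells with high and low interferon score within each library, with 95% counting intervals. The Ifit1-led cluster sits above the others in each library, and the immune members lie to the right of 0 while the intervals of Psmb5, Psmb6 and Psmb7 take in 0.

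In aCap-like cells, the thin cells that line the gas exchange surface, all 49 members were measured. Of these, 34 were higher by that limit and 2 lower, where 20.5% of all 11106 genes were that much higher and 21.3% lower. The median log2 ratio was 0.75 (0.65 to 0.84) for the immune and 0.37 (0.27 to 0.47) for the constitutive members, beside 0.01 over all genes. Psmb8 was at 135 and 248 CPM (log2 ratio 0.88, 0.79 to 0.96), Psmb9 at 53.7 and 94.8 CPM (0.82, 0.68 to 0.96) and Psmb10 at 113 and 175 CPM (0.63, 0.53 to 0.73). The caps Psme1 and Psme2 were at 179 and 257 CPM (0.52, 0.44 to 0.60) and at 112 and 188 CPM (0.75, 0.65 to 0.84). The immune share of the pair was higher in the B16-F10 6 h library for all 3 pairs, by 6.93 percentage points (4.80 to 9.05) for Psmb8, by 6.34 percentage points (3.88 to 8.79) for Psmb9 and by 3.91 percentage points (1.34 to 6.47) for Psmb10. The 2 lower members were Psme4, at 139 and 102 CPM (-0.45, -0.56 to -0.34), and Psma8, with 59 and 16 UMIs (-1.62, -2.52 to -0.80). These 2 were named after their values were seen.

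The aCap-like ratios differed between the clusters that make up the class. A cluster led by Ccdc184, with 880 control and 792 B16-F10 6 h cells, had medians of 0.59 (0.48 to 0.69) for the immune and 0.20 (0.12 to 0.28) for the constitutive members. A shallower cluster led by Tmeff2, with 569 and 186 cells, had medians of 1.36 (1.13 to 1.5999) and 0.82 (0.57 to 1.06), from immune sums of 258 and 627 CPM. The constitutive median of the Ccdc184-led cluster was thus below that of the whole class, and the part of the shifting cluster sizes in the ratios of the class was not tested. Median depth in the class was 9148 and 11325 UMIs per cell, and its melanoma marker sum 2.36 and 30.2 CPM (7 of 8 higher).

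Artery-like cells, which Gja5 and Bmx mark, formed a cluster that met 7 of the 8 artery markers and also 4 of the 8 vein markers. They had 42 measured members, and Psma8, Psmc3ip, Psmd10, Psme2b, Psme3, Psmf1 and Psmg1 fell short of 50 UMIs. Of the 42, 33 were higher and 0 lower, where 24.4% and 20.4% of all 7204 genes were. The median log2 ratio was 0.65 (0.31 to 0.98) for the 5 immune and 0.47 (0.13 to 0.81) for the 32 measured constitutive members, beside 0.02 over all genes. These are intervals of middle members with few UMIs, not of the sets. The log2 ratio of the summed UMIs was 0.72 (0.60 to 0.84) for the immune and 0.49 (0.43 to 0.54) for the constitutive set, without overlap. Psmb8 was at 144 and 261 CPM (0.87, 0.61 to 1.12), Psmb9 at 90.4 and 142 CPM (0.65, 0.31 to 0.98) and Psmb10 at 111 and 197 CPM (0.83, 0.54 to 1.13). Psmb5, Psmb6 and Psmb7 had log2 ratios of 0.32 (0.02 to 0.62), 0.57 (0.23 to 0.91) and 0.63 (0.23 to 1.03). The Psmb8 share was 53.5% and 62.6%, a difference of 9.14 percentage points (2.65 to 15.6), while the intervals for Psmb9 and Psmb10 took in 0. The melanoma marker sum of the class was 1.44 and 47.7 CPM (4 of 8 higher), the platelet sum 10.0 and 54.6 CPM (8 of 8 higher), and the level of Malat1, a nuclear RNA, 47667 and 38856 CPM. The part of these in the ratios was not tested.

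Vein-like cells had the widest gap of the 5 classes between the immune and the constitutive median. Of 47 measured members, 11 were higher and 0 lower, where 14.2% and 18% of all 9398 genes were. All 5 immune members were among the 11, and their median log2 ratio was 0.61 (0.44 to 0.79), beside 0.15 (-0.02 to 0.32) for the 34 measured constitutive members and -0.03 over all genes. The log2 ratio of the summed UMIs was 0.62 (0.55 to 0.69) for the immune and 0.15 (0.11 to 0.18) for the constitutive set. Psmb8 was at 186 and 326 CPM (0.81, 0.67 to 0.96), Psmb10 at 149 and 251 CPM (0.76, 0.59 to 0.92), Psme2 at 137 and 210.3 CPM (0.61, 0.44 to 0.79), Psmb9 at 123 and 186 CPM (0.60, 0.42 to 0.78) and Psme1 at 236 and 305 CPM (0.37, 0.23 to 0.50). Psmb7, the partner of Psmb10, was at 85.6 and 87.7 CPM (0.04, -0.21 to 0.28). The immune shares differed by 10.6 percentage points (6.36 to 14.9) for Psmb10, by 8.85 percentage points (5.05 to 12.7) for Psmb8 and by 5.92 percentage points (1.31 to 10.5) for Psmb9. Psmc1 was the 1 member with an interval below 0, at 117 and 101 CPM (-0.22, -0.43 to -0.00018), which it barely excluded. The share of all genes with such an interval was not counted in this class. The erythroid marker sum of the class was 514 and 3389 CPM (7 of 8 higher), the melanoma sum 0.625 and 26.8 CPM (7 of 8 higher), and the macrophage sum 14.99 and 36.1 CPM (6 of 8 higher), and their part in the ratios was not tested.

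LEC-like cells were too few for firm statements. With 58 and 51 cells, 34 members were measured, and of these 8 were higher and 5 lower, where 21% and 22.1% of all 3977 genes were. The median log2 ratio was 0.18 (-0.58 to 0.95) for the 4 measured immune members and 0.09 (-0.48 to 0.66) for the 30 measured constitutive members, beside -0.01 over all genes. Both intervals are those of middle members with few UMIs, and both took in 0. The log2 ratio of the summed UMIs was 0.26 (-0.03 to 0.54) for the immune and 0.11 (0.0077 to 0.20) for the constitutive set. Psmb8 was at 66.5 CPM (32 UMIs) and 76.9 CPM (37 UMIs), a log2 ratio of 0.21 (-0.51 to 0.94), so the ratio seen in gCap-like cells lay inside its interval. Psmb9 had 12 and 25 UMIs, below the limit. Psme4 was at 114 and 168 CPM (0.56, 0.05 to 1.08), and Psmd1 at 102 and 177 CPM (0.79, 0.27 to 1.33). These 2 were named after their values were seen, as 2 of the 4 members with an interval above 0. In this class, too, the share of all genes with such an interval was not counted. Psma8 was not detected, with 0 UMIs in both libraries, which allows up to 7.67 CPM. The macrophage marker sum of the class was 52.0 and 158 CPM (3 of 8 higher), and its part in the ratios was not tested.

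**Figure D4:**
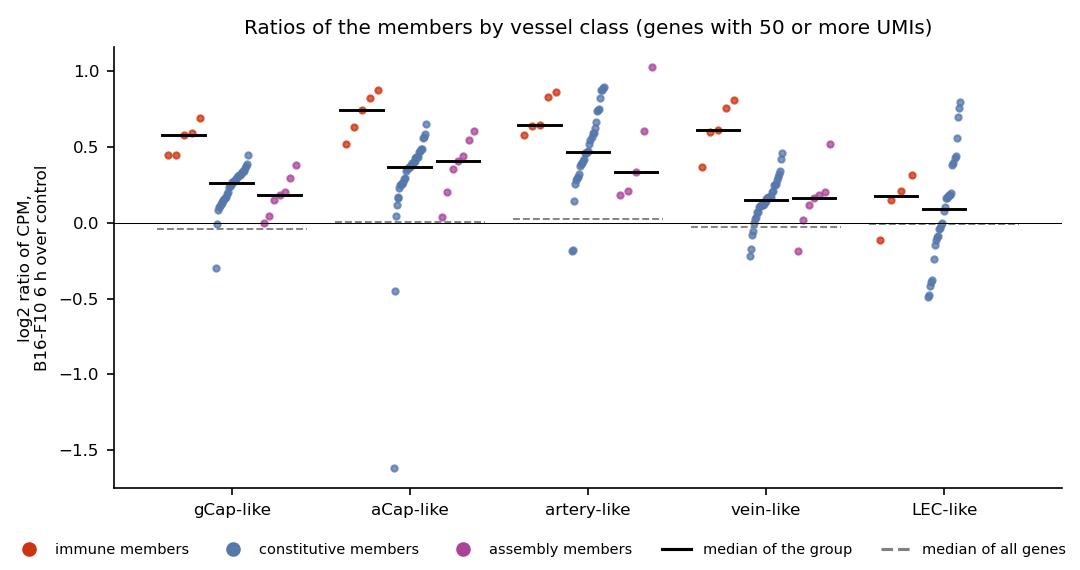
Log2 ratio of CPM, B16-F10 6 h over control (y axis), of each measured member by vessel class (x axis), for immune (red), constitutive (blue) and assembly members (purple), with the median of each group (black bar) and of all genes (dashed). The medians of the immune members lie at 0.58, 0.75, 0.65 and 0.61 in gCap-, aCap-, artery- and vein-like cells and at 0.18 in LEC-like cells, and the constitutive medians lie below them in all 5 classes.

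Levels of the immune members in aCap-like cells lay below those in gCap-like cells in each library. In the control, aCap-like cells had less of all 5 than gCap-like cells, by log2 ratios of -1.37 (-1.48 to -1.25) for Psmb9, -0.64 (-0.71 to -0.56) for Psmb8, -0.38 (-0.45 to -0.31) for Psme1, -0.38 (-0.46 to -0.29) for Psmb10 and -0.26 (-0.34 to -0.17) for Psme2. In the B16-F10 6 h library all 5 were again lower in aCap-like cells, Psmb9 by -0.99 (-1.09 to -0.89) and Psmb8 by -0.45 (-0.51 to -0.39). The constitutive members of the class went the other way, with medians of 0.19 and 0.37, beside -0.02 and -0.01 over all genes. The clusters of the class differed in this. The constitutive sum was 5499 and 6354 CPM in the Ccdc184-led cluster, above the 4161 and 4844 CPM of gCap-like cells. In the Tmeff2-led cluster it was 2730 and 4350 CPM, below them. Of the 48 members with at least 50 UMIs in each library's comparison, 27 were higher and 8 lower in aCap-like cells with intervals that excluded 0 in both libraries, where 24.4% of all 11982 genes were higher and 26.8% lower by the same rule. Apart from the immune 5, the 8 lower ones were Psmb2, Psme2b and Psmg4. The immune share of the catalytic pairs in control aCap-like cells was 47.6% for Psmb8, 28.3% for Psmb9 and 57.9% for Psmb10, against 63.0%, 54.5% and 65.0% in control gCap-like cells. Psma8, the testis alpha subunit, was at 4.50 CPM in control aCap-like cells (59 UMIs) and at 0.543 CPM in control gCap-like cells (16 UMIs), and its counting intervals lay above 0 for aCap-like over gCap-like cells in both libraries, though it fell short of 50 UMIs in the B16-F10 6 h comparison.

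Vein-like cells differed little from gCap-like cells in these medians. Their immune medians over gCap-like cells were 0.02 in the control and -0.01 in the B16-F10 6 h library, and their constitutive medians -0.06 and -0.15, with all-gene medians of -0.08 and -0.09. Of the immune set, Psmb8 and Psmb9 were lower in control vein-like cells, by -0.17 (-0.30 to -0.05) and -0.17 (-0.32 to -0.02), and Psmb10 was higher in those of the B16-F10 6 h library, by 0.20 (0.09 to 0.30). Artery-like cells had lower immune levels, with medians of -0.41 and -0.37, and Psmb8, Psmb9 and Psme2 were lower in both libraries, with Psmc4 and Psmc5. These 5 of 48 members compare with 10.2% of all 11596 genes, and 0 members were higher, where 8.93% of all genes were. LEC-like cells had the lowest, with immune medians of -1.38 and -1.81. Psmb8 was lower in LEC-like than in gCap-like cells by -1.66 (-2.21 to -1.16) in the control and by -2.14 (-2.65 to -1.68) in the B16-F10 6 h library. All 5 immune members and 8 others, 13 of 48, were lower in LEC-like cells in both libraries and 0 were higher, where 11.1% of all 11615 genes were lower and 11.5% higher.

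The order of the Psmb8 share in the control was gCap-like, vein-like, artery-like, aCap-like and LEC-like cells, with 63.0% (62.0 to 63.9), 60.3% (57.2 to 63.4), 53.5% (48.3 to 58.6), 47.6% (46.0 to 49.3) and 38.1% (27.7 to 49.3). The intervals of gCap-like and vein-like cells overlapped, as did those of vein-like and artery-like, of artery-like and aCap-like, and of aCap-like and LEC-like cells. That of gCap-like cells lay above those of artery-like, aCap-like and LEC-like cells. For Psmb9 the order was gCap-like (54.5%, 53.4 to 55.6), vein-like (51.8%, 48.2 to 55.4), artery-like (50.0%, 43.7 to 56.3), aCap-like (28.3%, 26.5 to 30.1) and LEC-like cells (18.2%, 9.76 to 29.6), and the first 3 lay above the other two without overlap.

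**Figure D5:**
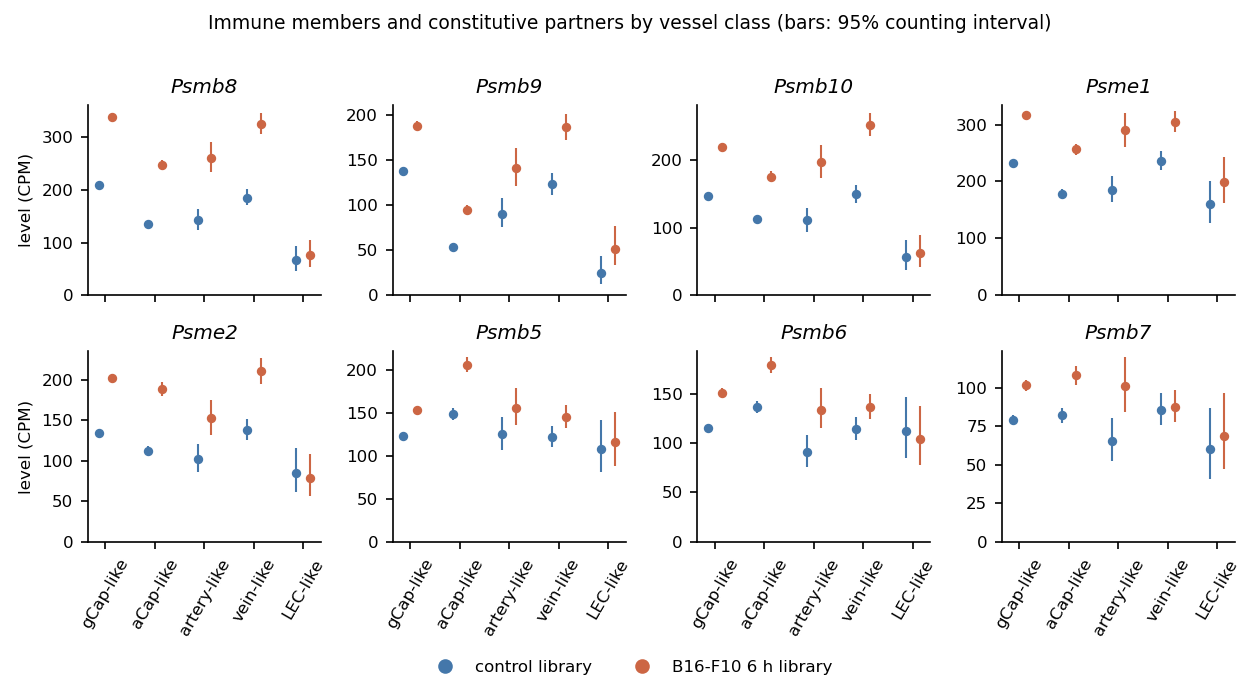
Level (y axis, CPM) of the 5 immune members and of Psmb5, Psmb6 and Psmb7 in each vessel class (x axis) in the control (blue) and the B16-F10 6 h library (orange), with exact 95% counting intervals. In both libraries Psmb9 is lower in aCap-like (53.7 and 94.8 CPM) than in gCap-like cells (138 and 188 CPM), while Psmb5 is higher in aCap-like cells.

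The B16-F10 cells recovered from the injected lungs held transcripts of the constitutive subunits and few of the immune catalytic genes, most of these from Psmb10. The melanoma-like class held 78 cells of the B16-F10 6 h library and 0 of the 7830 control cells, which allows a share of up to 0.0471%. In it the constitutive sum was 7922 CPM and the immune sum 193 CPM. Psmb8 had 5 UMIs and made up 1.59% (0.517 to 3.67) of its pair, Psmb9 had 2 UMIs and made up 0.787% (0.0955 to 2.82), and Psmb10 had 29 UMIs and made up 13.3% (9.09 to 18.5). Psmb5, Psmb6 and Psmb7 were at 374, 304 and 228 CPM. Against gCap-like cells of the same library, Psmb8 was lower by a log2 ratio of -5.81 (-7.43 to -4.59) and Psmb9 by -6.28 (-9.33 to -4.43), while the constitutive median was 0.57, beside -1.06 over all genes. Psme1 and Psme2 were also below gCap-like cells, at 101 and 48.3 CPM. Psmd8, a lid subunit, was at 1078 CPM, 3.34 (3.23 to 3.44) above gCap-like cells on the log2 scale, the largest difference among the constitutive members, and was named after its value was seen.

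Leukocytes left after the sort carried transcripts of the immune set, as lymphocytes and macrophages are known to do. In macrophage-like cells (6 control and 36 B16-F10 6 h cells), Psmb8 made up 63.0% and 58.9% of its pair, and the immune sum was 1264 and 1044 CPM. In the same macrophage-like cells Psmb9 made up 45.2% (27.3 to 64.0) and 57.7% (47.9 to 67.0) of its pair and Psmb10 35.7% (18.6 to 55.9) and 65.9% (57.2 to 73.9), from few control UMIs. In lymphoid-like cells (16 and 64 cells) Psmb8 made up 85.7% (74.6 to 93.3) and 76.6% (70.6 to 81.9), Psmb9 65.6% and 61.4% and Psmb10 42.9% and 56.4%, and the immune sum was 1087 and 1027 CPM. In the control these sums lay above the 861 CPM of gCap-like cells, and in the B16-F10 6 h library below their 1265 CPM. Neutrophil-like cells (3 and 19) were too few for shares.

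Genes that work with the proteasome were followed from fixed lists in gCap-like cells. Each count below is to be set beside all measured genes of these cells, of which 15.7% were higher by that limit and 21.3% lower. Of 15 measured partners (16 listed), 3 were higher and 0 lower, with a median log2 ratio of 0.18. The highest was Pomp, the maturation factor of the core, at 198 and 276 CPM (0.48, 0.43 to 0.53), and the lowest Uchl5, a deubiquitinase of the regulatory particle, at 38.4 and 32.2 CPM (-0.25, -0.38 to -0.13). Of 11 genes that control proteasome gene expression through Nfe2l1 and its relatives, 1 was higher and 0 lower, with a median of 0.11. That gene was Maff, a small partner of these factors, at 12.6 and 27.5 CPM (1.13, 0.95 to 1.31), and the lowest was Nfe2l3 (-0.14, -0.67 to 0.39). Nfe2l1 itself, named outside the rule as the factor the list is built on, was at 137 and 137 CPM (0.0035, -0.06 to 0.07). Of the 6 ubiquitin genes and activating enzymes, 1 was higher and 0 lower, from Uba6 (-0.15, -0.31 to -0.00094) to Uba1 (0.33, 0.24 to 0.41), with a median of 0.13.

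Of 11 genes of interferon signalling, 2 were higher and 0 lower, where 15.7% and 21.3% of all genes were. Their median log2 ratio was 0.21, beside -0.04 over all genes. The highest was Nlrc5, the activator of MHC class I genes, at 33.3 and 49.8 CPM (0.58, 0.46 to 0.70), and the lowest Ifnar1, a type I interferon receptor chain, at 79.6 and 63.8 CPM (-0.32, -0.41 to -0.23). Of 7 genes that load peptides on MHC class I, 3 were higher and 0 lower, with a median of 0.27. Tap1, which lies between Psmb8 and Psmb9, was the highest of them at 72.8 and 121 CPM (0.74, 0.66 to 0.81), close to the ratio of Psmb8, and Erap1, which trims peptides, the lowest at 69.9 and 79.7 CPM (0.19, 0.11 to 0.27).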

How the data were processed

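RNA-Seq libraries of 1 control and 1 B16-F10 6 h sample were used. The authors deposited raw UMI counts per gene and barcode, made with Cell Ranger 7.2.0 on mm10, and the submitters' notes also name Seurat 4.4.0. Whether introns were counted was not given in the sources used here. The limits on a cell were 1000 to 5000 genes and less than 20% of UMIs from mitochondrial genes. Cells with the highest simulated doublet scores per library were removed at 0.8% per 1000 cells (564 and 554 cells, 6.72% and 6.66%). Cells were clustered with scanpy 1.11.5 and leidenalg 0.10.2 (30 principal components, 20 neighbours, resolution 0.8), with proteasome genes and score lists left out of the variable genes. An EC cluster was named from its list when at least 4 of 8 markers were 1.5-fold above the other clusters and 6 of 8 EC markers were in at least 50% of its cells, unless its top 10 genes held more markers of another class. Cells of a cluster that held melanoma and macrophage markers were divided by the list with more UMIs in each, a choice made after seeing the data.

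For each class the UMIs of a library were added up and scaled to CPM. Intervals are exact Poisson for levels, exact binomial for ratios and shares (Clopper-Pearson), and Newcombe for differences of shares (scipy 1.17.1), all at 95%. The interval of a median is that of its middle member, or the mean of the middle pair. No test was made with 1 library per group. The steps were tested on simulated data. Values in full were given for the immune members, Psmb5, Psmb6 and Psmb7, for the 2 highest and 2 lowest ratios of each other role group in gCap-like cells (all where it has 4 or fewer), and for the highest and lowest of each pathway list, and exceptions are named as such. The members and lists were chosen with earlier results of these data known. Alternatives covered scaling, cell limits, doublets, resolution, clustering genes, thinning, free RNA, cells with markers of other types, shallow clusters, the fold and the UMI limit.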

Additional observations from a re-analysis of the deposited data

Results flagged for a closer look

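Psme4 had a log2 ratio of 0.56 (0.05 to 1.08, from 55 and 81 UMIs) in LEC-like cells, against -0.30 (-0.36 to -0.23, from 3827 and 3326 UMIs) in gCap-like cells and -0.45 (-0.56 to -0.34, from 1820 and 1112 UMIs) in aCap-like cells. Psmc1 had a log2 ratio of 0.23 (0.13 to 0.33, from 1673 and 1637 UMIs) in aCap-like cells and 0.47 (0.10 to 0.83, from 114 and 147 UMIs) in artery-like cells, against -0.22 (-0.43 to -0.00018, from 376 and 339 UMIs) in vein-like cells. Both genes stood out because their ratios lay on opposite sides of 0 in different vessel classes, with counting intervals that excluded 0. The difference was not tested, since there was 1 library per group. How many of all genes lay on opposite sides in this way was not counted, and the vein-like interval of Psmc1 barely excluded 0.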

How the results depend on the processing

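No paired analysis was possible because the control and the B16-F10 6 h group are 1 library each. The 15 summary results had 191 values under the alternatives. Of these, 171 stayed within the counting error of the reported value or within 1.5 times the reported count. A further 20 moved and 0 were counted as reversed. A change of sign within the counting error was not counted as a reversal. The constitutive median of LEC-like cells, reported at 0.09, ranged from -0.18 to 0.19. Over single members in gCap-like cells, 656 of 720 values stayed, 64 moved and 0 reversed. The number of members higher by the limit in gCap-like cells, 13 as reported, was 21 with libraries scaled on the median gene, 24 with all ECs summed, 20 under 10% mitochondrial UMIs, 25 with doublets kept, 20 at a cluster resolution of 1.6, 21 with cells thinned to 2000 UMIs, 7 without the shallow clusters, 38 at a fold of 1.1 and 2 at a fold of 1.5. The number lower, 0 as reported, was 2 with all ECs summed and 1 each under 10% mitochondrial UMIs, with doublets kept, with thinned cells, at a fold of 1.1 and with genes of at least 10 UMIs. With the unnamed capillary cluster led by Esm1 added, an alternative chosen after seeing the data, 21 were higher and 1 lower. The constitutive median of 0.26 became 0.32 with doublets kept and 0.20 without the shallow clusters, where the immune median of 0.58 became 0.50. Many members lie close to the fold, so these counts follow small shifts. Over all alternatives run, the immune median stayed between 0.50 and 0.63 in gCap-like, 0.72 and 0.77 in aCap-like, 0.49 and 0.91 in artery-like and 0.57 and 0.71 in vein-like cells, and the constitutive median between 0.20 and 0.32, 0.36 and 0.39, 0.44 and 0.49, and 0.13 and 0.20. In LEC-like cells the medians ranged from 0.00032 to 0.45 and from -0.18 to 0.19. The Psmb8 share of its pair in gCap-like cells differed by 5.40 to 6.63 percentage points, that of Psmb10 by 2.60 to 4.32 and that of Psmb9 by 0.19 to 1.88. LEC-like values rest on 58 and 51 cells, and no alternative measures the spread between mice.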
